A study of Mus musculus with 2 samples.

Results

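These data describe 1157 ELAVL2 RIP peaks that lay outside every gene of the authors' deposited gene table. The nearest gene that the table paired with each peak ended within 5000 bp before it. The peaks were chosen by position alone: peaks on the 19 autosomes, placed only upstream or downstream of genes by the table. Each lay downstream of its nearest paired gene, at 5000 bp or less. They made up 18.0% of the 6442 autosomal intergenic peaks and 4.35% of the 26573 autosomal peaks in the table, out of 28332 peaks called in all, and followed 623 genes. Of these peaks 1156 were paired with 1 gene only, so for them the nearest gene is the table's own choice and no tie could arise. The remaining member had no tie either. RIP-seq sets the RNA pulled down by an antibody against the RNA of the lysate it came from. The study had 1 sample of RNA pulled down with ELAVL2 and 1 of input RNA, both from newborn mouse ovary with no further strain or treatment given. For the RIP, 100 newborn ovaries were homogenised and incubated with 5 ug of anti-ELAVL2 antibody on beads for 6 hours, and the input was 5% of the starting material. With 1 sample per arm and no control pulldown, no value below has a replicate check, no test between samples was possible, and RNA held by ELAVL2 cannot be told apart from RNA held in another way.

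ELAVL2 belongs to the ELAVL (Hu) family of RNA-binding proteins, which bind U-rich and AU-rich RNA, mostly in introns and 3' untranslated regions, and act on the stability and translation of mRNA. Family members can also hinder the use of an early poly(A) site, so that a transcript runs on to a later one. Gene models differ in how far they follow a transcript past its coding end, so a peak just beyond one model can lie inside another model of the same gene. In the newborn mouse ovary, clusters of oocytes separate and become enclosed in primordial follicles.

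Letters could be read for 2 of the 1157 peaks, the only ones that touched a promoter window of the RefSeq table (build GRCm38.p6, the same assembly as mm10). Both followed Gm13767 on chromosome 2, a RefSeq pseudogene with 11 downstream peaks, and lay in the window before the start of Gm39869 on the same strand. They are shown because they lie past the end of both gene models, at the far end of one of the longest series of downstream peaks within 5000 bp. Capitals mark runs of 4 or more T on the strand of Gm13767.
Gm13767 peak at 4431 bp, chr2:90353662-90353740, minus strand: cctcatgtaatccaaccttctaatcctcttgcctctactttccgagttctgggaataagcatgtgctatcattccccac
Gm13767 peak at 4211 bp, the part chr2:90353847-90353899, minus strand: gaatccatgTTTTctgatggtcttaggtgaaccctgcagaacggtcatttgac
The first was 32.9% T, a share that 13.1% of the 32851 promoter windows reached over the same stretch, and the second was 32.1% T, reached by 23.1%. TTTT was found 1 time in the second stretch, 0 times in the first and 0 times on the other strand of either. It occurred on the gene's strand in 20.1% of windows over the second stretch and 21.4% over the first. ATTTA, the core of AU-rich elements, was absent from both strands of both stretches and was held by 5.37% to 5.97% of windows.

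The peaks crowded against the ends of genes. Of the 1157 peaks, 166 lay within 250 bp of the gene and 147 at 250 to 500 bp, against 33 and 32 of the 726 intergenic peaks within 5000 bp upstream of a gene, the closest class for comparison. The excess shrank with distance, from 5.03 downstream peaks for each upstream one within 250 bp to 1.61 at 1000 to 2000 bp. From 2000 to 4000 bp the classes were nearly equal, with 150 against 144 and 139 against 134 peaks, and from 4000 to 5000 bp there were 100 downstream and 150 upstream peaks. Over the whole 5000 bp the ratio was 1.59 (exact binomial 95% interval 1.45 to 1.75). Intervals here cover counting alone and treat peaks of the same gene as separate, which they are not. Counted by gene, 623 genes had downstream peaks and 453 had upstream ones. The ratio of peaks was 2.79 when RefSeq bodies took the place of the authors' gene bodies. Among peaks with a pileup of at least 20 it was 2.56. The median distance was 1183 bp downstream and 2373 bp upstream.

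**Figure D1:**
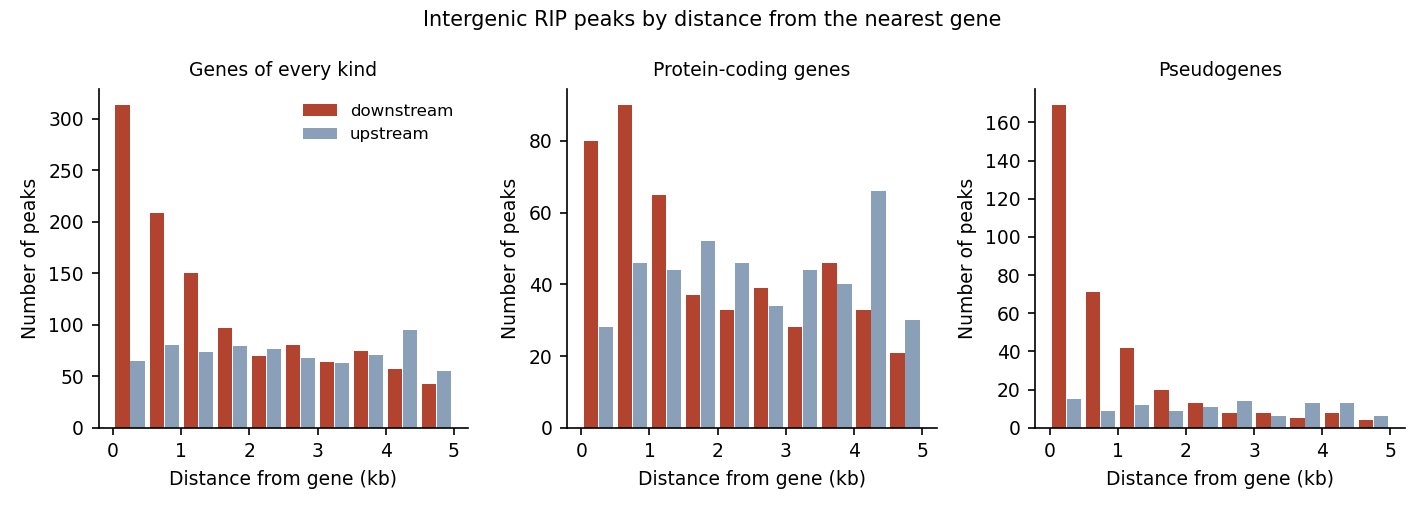
Number of intergenic peaks in bins of 500 bp by distance from the nearest gene, downstream in red and upstream in blue, for genes of every kind, protein-coding genes and pseudogenes. Downstream peaks pile up next to the gene, most steeply for pseudogenes, where 169 of 348 lie within 500 bp.

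Much of this excess followed pseudogenes, inactive copies of genes that are often made from a spliced mRNA and then carry its coding and untranslated sequence. Pseudogenes were followed by 348 of the 1157 peaks (30.1%), while they made up 14.9% of upstream peaks and 10.0% of the autosomal genes in the table. Their downstream peaks outnumbered upstream ones 348 to 108, a ratio of 3.22 (interval 2.59 to 4.04), and within 1000 bp 240 to 24. Protein-coding genes were followed by 472 peaks and preceded by 430, a ratio of 1.10 whose interval of 0.961 to 1.25 included equality. Counted by gene the order was the other way, with 229 protein-coding genes downstream and 275 upstream. For pseudogenes the same counts were 213 and 57. Peaks of the same gene are not separate observations, so these intervals are too narrow. Within 1000 bp of protein-coding genes there were still 170 downstream and 74 upstream peaks, a ratio of 2.30 (interval 1.74 to 3.06), and at 4000 to 5000 bp 54 and 96. A further 45 peaks followed long noncoding RNA genes, 31 small RNA genes, 24 antigen receptor gene segments and 237 genes that could not be matched to the reference. The kind is that of the gene the authors' table paired with each peak, and the ratios by kind were not recomputed with RefSeq bodies.

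The peaks of pseudogenes also differed in abundance. Their median RIP pileup, meaning how many tags overlapped at the peak's summit, was 41 at a median input level of 15.6 and a median fold of 2.65. Peaks after protein-coding genes had a median pileup of 19 at an input level of 3.54 and a median fold of 4.20. The input level is the peak caller's local background in scaled input tags, and the fold is pileup over that level with 1 added to both. Reads were 36 bases long, and the share of a pseudogene's tags that also match its active relative was not tested.

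The whole class stood between peaks at the ends of genes and peaks far from genes. Its median fold was 3.81 (quartiles 2.64 and 5.27, range 1.57 to 13.9) and its median pileup was 22 at an input level of 4.64. Peaks in the last 10% of exactly 1 gene (8548) had a median fold of 2.84, a pileup of 34 and an input level of 11.3. Upstream peaks had 4.75, 14 and 2.08, and the 1626 peaks over 50 kb from a gene had 5.11, 10 and 0.743. A fold of at least 5 was reached by 343 downstream peaks (29.6%, interval 27.0 to 32.4), against 26.1% of all peaks called, 44.8% of upstream peaks and 11% of peaks in the last 10% of a gene.

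These differences in fold moved with the input level. Split by quintiles of input level over all peaks, the median fold downstream was 5.85, 5.12, 3.69, 2.98 and 2.11 from the lowest to the highest, and upstream it was 5.85, 4.97, 3.90, 2.69 and 2.15. The difference of -0.936 between the whole classes became 0, 0.155, -0.212, 0.297 and -0.0399 within the quintiles. The fold has the input level in its denominator, so the 2 are not independent. Of downstream peaks 23.0% were in the highest quintile and 21.3% in the lowest, and of upstream ones 6.61% and 31.4%. In the last 10% of genes 33.1% were in the highest and 5.12% in the lowest.

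**Figure D2:**
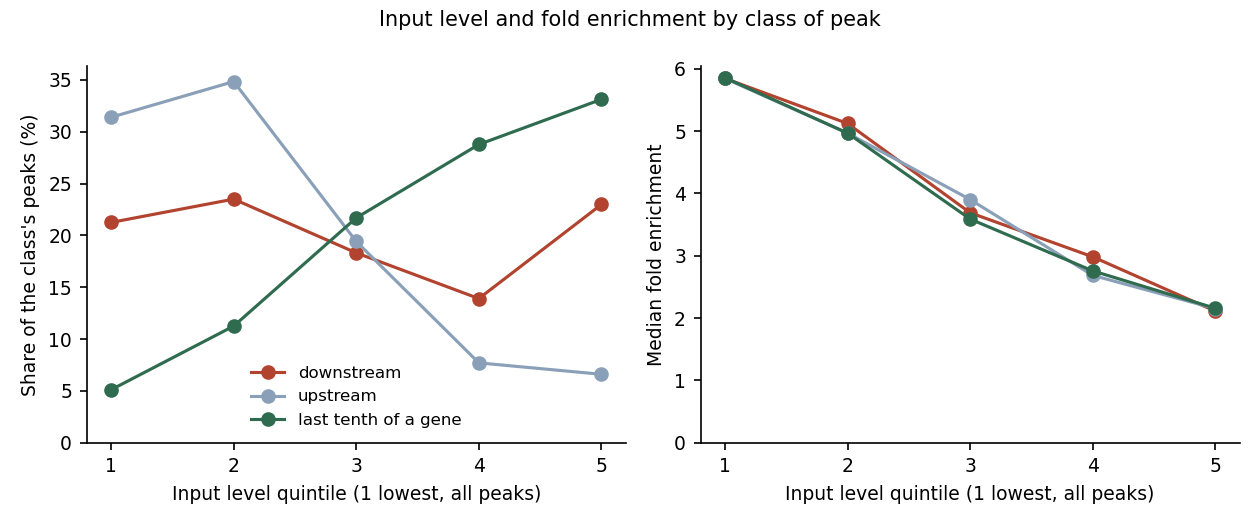
Left, share of each class of peaks (%) in 5 equal groups of input level over all peaks called; right, median fold enrichment of RIP over input in the same groups. The right-hand lines nearly coincide, falling from 5.85 to 2.11 for downstream peaks, while the classes differ on the left.

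The position of the peaks was then set against RefSeq, an annotation that the rule did not use. Of the 1157 peaks, 365 (31.5%, interval 28.9 to 34.3) overlapped the RefSeq body of the very gene they followed, and so lay past the end of 1 model and inside the other. A further 191 (16.5%) overlapped only another RefSeq gene, and 601 (51.9%) overlapped none. The 237 peaks after genes not matched to RefSeq could not count as in their own gene. Of these, 78 were among the 191 and 159 among the 601. Whether the other gene of the 78 was the same gene under another name was not tested. The 191 also held the 24 peaks of antigen receptor gene segments. Of upstream peaks 7.71% (interval 5.88 to 9.90) overlapped the RefSeq body of their own gene, and 117 upstream peaks of unmatched genes could not. Over all kinds of gene the share was 54.2% within 250 bp, 18.0% at 2000 to 3000 bp, 25.2% at 3000 to 4000 bp and 18.0% at 4000 to 5000 bp. This followed the pseudogenes, whose share was 69.2% within 500 bp and 16.7% at 4000 to 5000 bp. For protein-coding genes it showed no such fall, with 31.3% within 500 bp, 43.2% at 3000 to 4000 bp and 29.6% at 4000 to 5000 bp. Of the 191 peaks in another gene, 112 were in a protein-coding gene, 28 in a long noncoding RNA gene and 22 in a pseudogene. That gene ran on the strand opposite to the followed gene for 85 and on the same strand for 17, and for 89 the strand was mixed or not known. Because the called peaks carry no strand, the 85 cannot be assigned to one gene or the other.

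**Figure D3:**
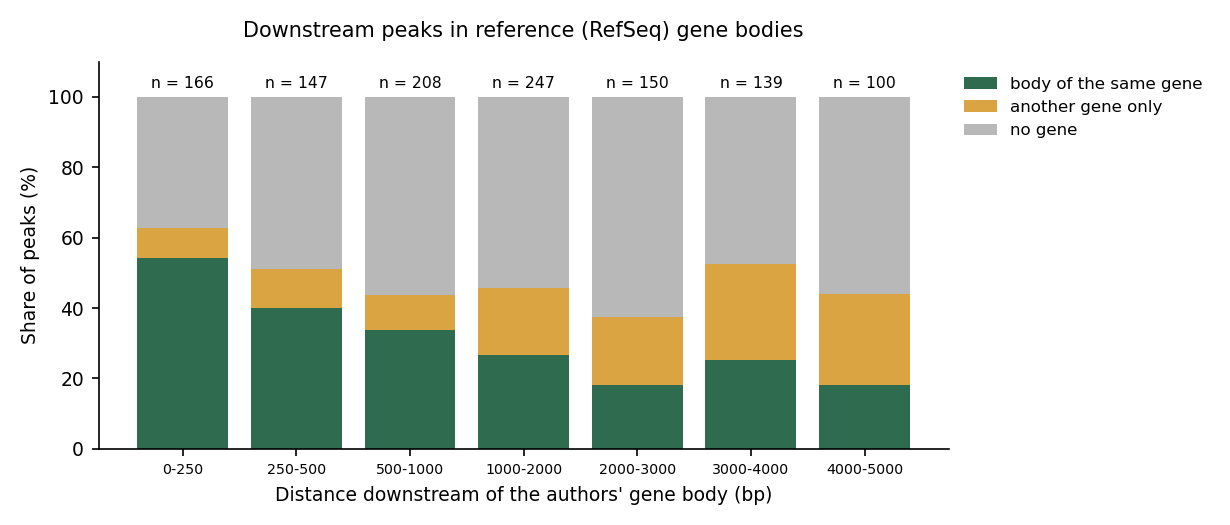
Share of downstream peaks (%) that overlap the RefSeq body of the gene they follow, only another RefSeq gene, or none, by distance from the end of the authors' gene body in bp, with the number of peaks above each bar. Genes of every kind are pooled: the share in the body of the same gene is 54.2% in the nearest bin and 18.0% in the farthest, while for protein-coding genes alone it is 31.3% within 500 bp and 29.6% at 4000 to 5000 bp. Peaks after genes not matched to RefSeq cannot count as in the body of the same gene.

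Genes with downstream peaks more often had a longer RefSeq model. The RefSeq 3' end lay more than 100 bp beyond that of the authors' table in 234 of 497 matched genes (47.1%), against 22.3% of genes with upstream peaks and 18.1% of all autosomal genes in the table. Among protein-coding genes alone these shares were 31.0% (71 of 229), 18.9% and 13.8%. Read the other way, of 921 protein-coding genes in the table with such a longer model, 58 (6.30%) held a downstream peak inside the added stretch. Of 5733 without one, 158 (2.76%) had a downstream peak anywhere within 5000 bp, which is a wider count. Counted in that wider way, 71 of the 921 had one. For pseudogenes the shares, with the same difference in counting, were 21.4% (119 of 556) and 10.3% (59 of 575). Inside added stretches of up to 5000 bp, protein-coding genes had 101 peaks at 45 genes. Of these peaks 43 (42.6%) lay in the last 25% of the stretch, towards the RefSeq 3' end, and 16 (15.8%) in the first. Peaks of the same gene are not separate observations, and the position was not counted by gene.

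Folds were lower inside the longer models. The 365 peaks inside the RefSeq body of their gene had a median fold of 2.97, a median pileup of 35 and an input level of 11.3. These pooled values were near those of peaks in the last 10% of genes, but those of the 2 main kinds of gene were not. The 205 peaks after pseudogenes had 2.48, 46 and 18.4, and the 147 after protein-coding genes had 3.90, 23 and 4.92. The 601 peaks in no RefSeq gene had 4.31, 18 and 2.83. For protein-coding genes the gap was smaller, 3.90 (median interval 3.63 to 4.20) for 147 peaks in 58 genes against 4.54 (4.38 to 4.80) for 260 peaks in 147 genes. The part of the input level in these differences was not tested within each group.

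Peaks came in series. Of the 623 genes, 383 were followed by 1 peak, 119 by 2, 54 by 3, 27 by 4 and 40 by 5 or more, and those 40 genes held 266 peaks. Joining peaks of a gene within 1000 bp of each other gave 657 regions, of which 243 held 2 or more peaks and together 743 of the 1157 (64.2%). Upstream peaks gave 474 regions, with 51.8% of peaks in regions of 2 or more. Peaks of a series share a gene and may share a transcript, so they are not separate observations.

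Among protein-coding genes with a longer RefSeq model, Klhl11, which encodes a Kelch-family adaptor of a ubiquitin ligase, had the longest series. Its 13 peaks lay 1031 to 4915 bp past the end of the gene in the table (chromosome 11, 100462614 to 100472741, minus strand), all inside a RefSeq body that runs 5492 bp farther. Pileups ran from 27 to 52 with a median of 35, over input levels of 8.49 to 27.6, and the strongest peak, at 100459715 to 100459903, had a pileup of 48 against 12 and a fold of 3.76. No peak lay inside the shorter gene body. Zkscan16, a zinc finger gene (chromosome 4, 58943628 to 58958355), had 11 peaks in an added stretch of 4269 bp and 2 in its body. Their pileups ran from 12 to 40, the largest fold being 5.71, from 15 tags over 1.80, and the best supported, 5.10, at 33 against 5.66.

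Mettl4, a methyltransferase-like gene (chromosome 17, 94727080 to 94749892), had 11 peaks in a stretch of 4490 bp, beginning 12 bp after the gene. Its body held 9 more peaks with a best fold of 6.77, above the 4.50 reached downstream at a pileup of 35 and an input level of 7.01. Klhl33, another Kelch gene (chromosome 14, 50891389 to 50893255), had fewer but stronger peaks, 4 in a stretch of 2808 bp, led by a fold of 9.52 at a pileup of 22 over an input level of 1.42. Its body held none. Input levels ran from 8.49 to 27.6 at Klhl11, 1.80 to 12.7 at Zkscan16, 2.65 to 16.3 at Mettl4 and 1.24 to 2.12 at Klhl33, so that Klhl11 and Klhl33 did not overlap.

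A pair of genes chosen after their values were seen showed the same layout. Rif1, which acts in replication timing and in repair of DNA breaks (chromosome 2, 52072837 to 52122383), had 7 peaks, all inside a RefSeq body 4386 bp longer. Of these, 6 lay 3100 to 4207 bp past the gene, and the farthest of these had the largest fold, 6.61, from 29 tags over 3.54. Zfp169, a zinc finger gene (chromosome 13, 48487647 to 48513451), had 6 peaks in an added stretch of 6884 bp with folds of 3.74 to 6.99. Its most abundant peak, with a pileup of 61 over 15.6, had the lowest of these folds and a -log10 q of 13.0, nearly that of a peak with 30 over 3.54, 13.2.

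**Figure D4:**
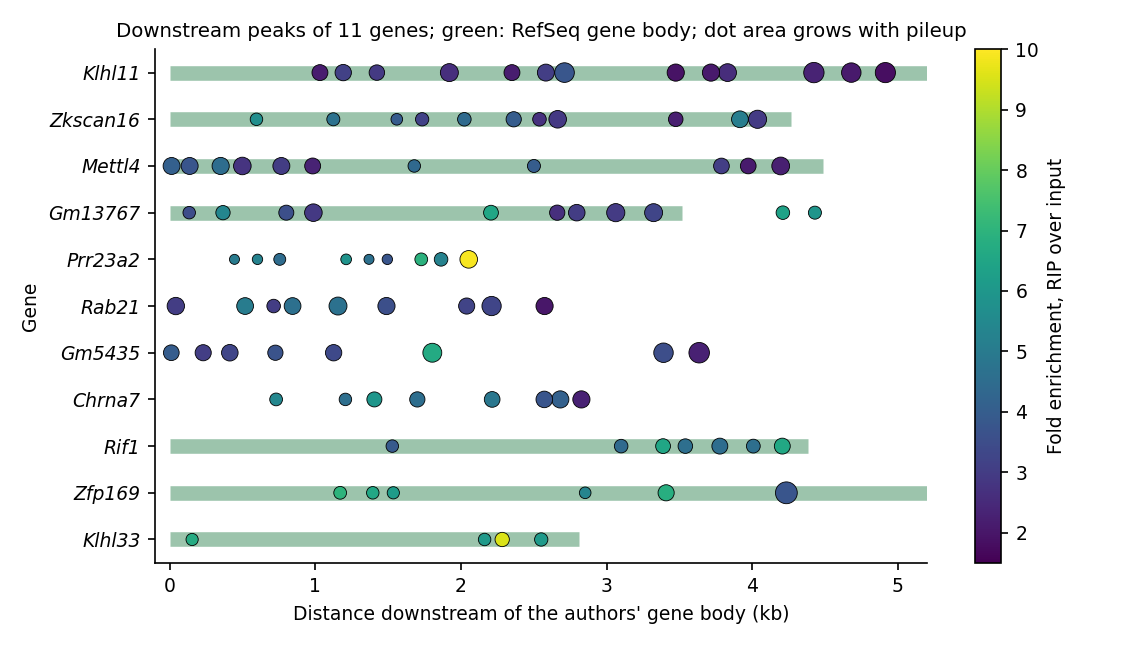
Downstream peaks of 11 genes by distance from the end of the authors' gene body in kb; colour gives the fold enrichment of RIP over input, dot area grows with RIP pileup, and green bars mark the RefSeq body, which for Klhl11 and Zfp169 runs beyond the axis. Prr23a2, Rab21, Gm5435 and Chrna7 have peaks and no visible bar.

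Other protein-coding genes had series of peaks where neither annotation had a gene. Prr23a2, a short gene (chromosome 9, 98856494 to 98857374), was followed by 9 peaks at 444 to 2053 bp, with pileups of 7 to 37. The farthest, at 98859428 to 98859903, had a pileup of 37 against an input level of 2.83, a fold of 9.92 and the second largest -log10 q of all downstream peaks, 21.9. The other eight had folds of 3.73 to 6.94. Rab21, a small GTPase of endosomes, and Chrna7, the alpha-7 nicotinic acetylcholine receptor subunit, were chosen after their values were seen. Rab21 (chromosome 10, 115289863 to 115315591) had 9 peaks that began 41 bp after the gene, with folds of 2.00 to 5.05 and pileups of 19 to 46. Its body held 7 peaks, 4 of them in its last 10%. Chrna7 (chromosome 7, 63098692 to 63212526) had 8 peaks at 730 to 2827 bp with folds of 2.27 to 5.96, and 7 in its body, none of them in the last 10%.

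Some named peaks lay at low input, singly or 3 to a gene. A peak 4830 bp past Tm2d3 (chromosome 7, 65706744 to 65706875) had a pileup of 18 over 0.708 and a fold of 11.1. Acrv1, which encodes a protein of the sperm acrosome, was followed at 4451 to 4869 bp by 3 peaks with folds of 8.0, 7.67 and 9.38 and pileups of 24, 14 and 20. Neither gene had a peak in its body. The single peak 453 bp after 1700007K13Rik had a pileup of 16 at the genome-wide background level of 0.369 and a fold of 12.4, and 3 peaks after 1700030J22Rik had folds of 6.53 to 8.08. At 3996 to 4249 bp past 1700049E17Rik2 (chromosome 14), 3 peaks had folds of 12.2, 5.38 and 7.68 with pileups of 22, 12 and 23, all inside a RefSeq model 4986 bp longer. Each of these 3 had the same length, summit offset, pileup and fold as another peak in the list, so their place is uncertain. Gm8256 on the same chromosome had 3 peaks with folds of 5.48 to 11.7, inside its own RefSeq body and that of Gm5624, so the gene is uncertain.

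Olfactory receptor genes, whose models often hold the coding exon alone, were followed by 31 peaks at 18 genes, 2.68% of the class against 2.62% of upstream peaks. The largest folds at a pileup of at least 20 were at Olfr1350, where a peak 1812 bp past the gene had a pileup of 24 over 2.12 and a fold of 8.0, and at Olfr1197, where 28 over 2.83 gave 7.57 at 1318 bp. Zinc finger genes with names in Zfp, Zkscan, Zscan or Zbtb had 46 peaks at 17 genes (3.98% of peaks, against 2.20% upstream), and 3 genes, Zkscan16, Zfp871 and Zfp169, held 11, 7 and 6 of these peaks. Counted by genes the shares were 2.73% downstream and 2.43% upstream. Both families were grouped by name after the values were seen.

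The best supported peak of the class followed E330021D16Rik by 226 bp (chromosome 6, 136400018 to 136400091), with a pileup of 41 over 2.83, a fold of 11 and the largest -log10 q, 25.9. It overlapped the RefSeq pseudogene Tubb3-ps1. The peak in Tubb3 itself, a neuronal beta-tubulin on chromosome 8, had 43 tags over 2.83, which gave a fold of 11.5 (-log10 q 27.9). Whether the same tags were placed at both sites was not tested. At Gm5435, a pseudogene on chromosome 12, 8 peaks lay 10 to 3636 bp past the gene, the strongest with 44 over 5.77 and a fold of 6.65, and none was in a RefSeq body. Hmgb1-ps1, a pseudogene of the chromatin protein gene Hmgb1 chosen after its values were seen, had 5 peaks in a RefSeq body 1586 bp longer. They had pileups of 39 to 62 over input levels of 16.3 to 33.3 and folds of 1.69 to 2.89. Gm13767 had 9 of its 11 peaks inside a RefSeq body 3515 bp longer, with a best fold of 6.53 at 24 over 2.83, and the pair of sequences shown above lay beyond that body with folds of 6.40 and 5.94. Pced1c-ps had 2 peaks (folds 7.32 and 2.60), and Gm10807 on chromosome 10 had 1 at the background level (18 over 0.369, fold 13.9), 472 bp past the gene. A peak 502 bp past AW822073, on the same strand of that chromosome, also had 18 over 0.369 and a fold of 13.9. Whether the same tags were placed at both genes was not tested.

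The remaining named peaks followed noncoding genes and gene segments. Gm13375, a long noncoding RNA gene, had 2 peaks inside a RefSeq body 351 bp longer, with folds of 2.66 and 7.19 at pileups of 28 and 38. A peak 4 bp past the small nucleolar RNA gene Gm23716 had 20 over 1.42 and a fold of 8.69. V segments of the T cell receptor loci were followed by 20 peaks at 6 genes with a median fold of 6.94, all inside the RefSeq entry of a whole receptor locus, and none preceded such a segment. Trbv27 had 16 over 0.369 and a fold of 12.4. Segments of these loci are near copies of each other: a peak with a pileup of 16 lay 838 bp after Trav7n-6 and another with a pileup of 16 lay 838 bp after C920008G01Rik, with folds of 9.95 and 9.75. In the whole class 120 peaks (10.4%) had the length, summit offset, pileup and fold of another peak in the list, against 11.3% of upstream peaks, 18.1% of peaks over 50 kb from a gene, 7.80% of all peaks and 2.43% in the last 10% of genes. Whether such peaks share tags, or match in these measures because they hold few tags, was not tested. Their names and positions are uncertain.

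The genes followed by a peak were then checked for peaks in their own bodies. Of all protein-coding genes in RefSeq, 23.4% were overlapped by a peak. Genes of downstream peaks had a median length of 1.32 kb. It was 8.26 kb for genes of upstream peaks and 13.8 kb for all autosomal genes in the table. A short body offers less room for a peak, so the shares of the classes are not like for like. The gene body was also overlapped by a peak for 355 of the 1157 peaks (30.7%, interval 28.0 to 33.4), at 165 of the 623 genes, and for 190 (16.4%) a peak lay in the last 10%. Upstream peaks gave 29.9% (interval 26.6 to 33.4), at 129 of 453 genes, and 15.7% for the last 10%. Peaks of the same gene score alike here, so intervals that count each peak are too narrow to tell groups apart. Counted by peaks, the share for pseudogenes was 33.0% (interval 28.1 to 38.3) downstream and 12% (6.57 to 19.7) upstream, and for unmatched genes 11% (7.29 to 15.7) and 19.7% (12.9 to 28.0). Peaks in the RefSeq body of their gene had the higher share, 43.6% (interval 38.4 to 48.8), against 26.6% (23.1 to 30.3) for those in no RefSeq gene. For protein-coding genes these shares were 56.5% and 36.2%.

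Of the genes listed for the ovary and for RNA regulation, 4 of 394 (1.02%) were followed by a downstream peak. This was near the share among protein-coding genes of the autosomes in RefSeq, 229 of 20661 (1.11%). Pabpn1, the nuclear poly(A)-binding protein and the 1 such gene of 32 in 3' end processing, had the most abundant of these peaks (chromosome 14, 54898352 to 54898876). Its pileup was 92 over 32.6, where tags of 50 bp kept 1 time per position and strand cannot pile up past 100, which bounds the fold. Its fold was 2.77 (-log10 q 12.3), in a RefSeq body 758 bp longer. Ythdf2, a reader of the m6A mark, was the 1 gene of 66 germline and translational RNA-binding proteins, with 2 peaks of folds 3.30 and 3.41 at pileups of 35 and 29. Ooep, a maternal protein of the egg cortex and 1 of 31 oocyte genes, had a peak 879 bp past it with 24 over 2.83 and a fold of 6.53, and 7 peaks in its body. Cyp19a1, the aromatase gene and 1 of 27 granulosa cell genes, had a peak of 5 tags over 0.369 (fold 4.38) that matched another peak in the same 4 measures, and none in its body.

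None of the 58 P-body and mRNA decay genes, 43 meiosis genes, 36 signalling genes of the PI3K, FOXO3, mTOR and AMPK pathways or 47 translation factors had a downstream peak. At a share of 1.11% over protein-coding genes, lists of this size would hold few or none, so these zeros set no list apart. In the same lists 42, 22, 17 and 13 genes were overlapped by a peak. Of all 21896 protein-coding genes in RefSeq, 5127 (23.4%) were overlapped by one. None of the 16 stroma, 10 endothelium, 11 epithelium, 10 immune and 12 erythroid genes had a downstream peak either. Of the lists that mark cell types, 12 of 31 oocyte genes, 2 of 27 granulosa, 2 of 16 stroma, 1 of 10 endothelium, 2 of 11 epithelium, 0 of 10 immune and 0 of 12 erythroid genes were overlapped by a peak. In such whole-tissue samples, fewer cells of a type and less RNA per cell cannot be told apart.

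At the 5000 bp limit itself, the last peaks inside followed Gm38141 (4929 bp, fold 5.62), Gm7103 (4949 bp, fold 8.77) and Gm23072 (4979 bp, fold 4.96). The first outside followed Zfp871 (5008 bp, fold 2.29), Gm13767 (5034 bp, fold 3.84) and Scgb2b27 (5039 bp, fold 2.29), so that peaks assigned to Gm13767 lay on both sides of the limit. Gm39869 starts near these peaks on the same strand, and which gene the outer peak belongs to was not tested.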

How the data were processed

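The submitters' processing notes name MACS2 2.1.0.20140616, TopHat2 2.0.8b, FastQC 0.11.2 and CASAVA 1.8.2, and build mm10. Per the file headers, 3 RIP lanes and 3 input lanes were pooled, tags were extended to 50 bp, 1 tag was kept per position and strand, the q cutoff was 0.05 and the larger library was scaled to the smaller. This left 13787676 of 172711531 RIP tags and 19479946 of 210270620 input tags. Pileup is the authors' deposited signal at the summit, and fold enrichment is a ratio from the same deposited list, as is -log10 q. The input level was computed as (pileup + 1) / fold - 1, and the Poisson -log10 p recomputed from it lay within 5.62e-05 of the deposited value.

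The authors' deposited gene table held 85730 rows, of which 43554 were left without repeats. The tool and gene set behind it are not stated here. Its genes were matched to RefSeq (GRCm38.p6) by symbol or unambiguous older symbol with overlapping bodies (9611 of 11969, 80.3%). Peaks counted as overlapping a body at 1 bp or more. RefSeq strands came from promoter windows, whose orientation was checked on 1627 overlapping pairs. Intervals are exact Clopper-Pearson or, for medians, binomial order-statistic 95% intervals, and cover counting only.

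Named genes were those with an approved symbol with the 10 largest folds at a pileup of at least 20, the 10 largest -log10 q, the 5 largest numbers of peaks, and up to 3 per gene list. Members and lists were chosen with earlier results of these data known. The member rule was tested on simulated peaks. Alternatives varied distance, q, pileup, merging, annotation and fold. Values were computed with pandas 2.3.3, numpy 2.4.6 and scipy 1.17.1 under Python 3.11.15, and drawn with matplotlib 3.10.9.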

Additional observations from a re-analysis of the deposited data

How the results depend on the processing

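With 1 sample per arm no replicate could be left out. No paired analysis was possible because each arm had 1 sample and no result came from a test. The number of peaks, 1157, became 521 and 768 at limits of 1000 and 2000 bp, 640 at a pileup of at least 20, 657 after merging, 601 outside RefSeq bodies and 505 with an approved symbol and no clone name; it stayed within 1.5 times for a limit of 10000 bp, a -log10 q of at least 3, all chromosomes and 1 paired gene. The median fold, 3.81, was 4.55 without the pseudocount, 4.41 at a -log10 q of at least 3, 2.77 at a pileup of at least 20, 4.20 for protein-coding genes, and 3.16, 3.52 and 4.10 at limits of 1000, 2000 and 10000 bp. The difference in median fold from upstream peaks, -0.936, was 0, 0.155, -0.212, 0.297 and -0.0399 within input quintiles 1 to 5, and -1.52 and -0.633 at 1000 and 10000 bp, so its sign did not hold at a matched input level. The ratio of downstream to upstream peaks, 1.59, was 3.59, 2.58 and 1.24 at 1000, 2000 and 10000 bp and 2.56 at a pileup of at least 20. It was 2.79 with RefSeq bodies on the 18 autosomes with a strand, 1.10 for protein-coding genes and 1.31 without pseudogenes. The share with a peak in the gene, 30.7%, was 38.6% and 35.2% at 1000 and 2000 bp, 36.6% at a pileup of at least 20 and 16.4% for the last 10% of the gene. The share in the RefSeq body of the same gene, 31.5%, was 44.4% at a pileup of at least 20 and 31.1% for protein-coding genes. A fold limit of 4 gave 545 peaks and of 8 gave 53, against 343. The settings by kind of gene were chosen after seeing the data. Except for limits that take fewer peaks by construction, the cause of these shifts was not tested.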
